A study of Arabidopsis thaliana with 20 samples.

Results

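Histones are the proteins around which DNA is wound in the nucleus, and the values described here are those of 39 histone genes of Arabidopsis thaliana, the thale cress, among the 37336 genes of the deposited expression table. The genes were taken by class from a list of gene identifiers. They comprise 8 genes for H4, 5 for H3.1, 3 for H3.3, 4 for canonical H2A, 3 for H2A.Z, 2 for H2A.X, 3 for H2A.W, 8 for H2B and 3 for the linker histone H1. All 39 were measured and all 39 passed the filter on low values. H4, H3.1, canonical H2A and H2B, 25 genes in all, are called replication-dependent here, and H3.3, H2A.Z and H2A.X, 8 genes in all, are called variants. H2A.W and H1 were kept apart from both.

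RNA was sequenced from inflorescences of 5 groups of plants, each with 3 libraries described as independent biological replicates. They were Columbia wild type, the dominant line dvl1-1D with high DVL1, the line 35S:DVL8, and plants with mutations in 5 genes each, named the dvl1 quintuple and the rtfl9 quintuple. DVL and RTFL genes encode small plant peptides that change organ shape when they are overexpressed, and the study asked which genes respond when they are raised or lost. Both quintuples share the mutations dvl8, dvl11, dvl19 and rtfl11, 4 genes in all, and the remaining mutated gene is DVL1 in the former and RTFL9 in the latter. In 35S:DVL8 the gene is read from a viral promoter that is active in most plant tissues, and not from its own. Every 35S:DVL8 title carries the same number, 2, before the replicate number, and the sources do not say what it stands for or whether either overexpressor is a single line. The series text describes an oldest flower at anthesis, whereas the extraction protocol also names later flowers, so the mix of flower stages is uncertain. The samples are bulk tissue, in which fewer cells of a type and less RNA per cell cannot be told apart.

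A nucleosome core holds a pair each of H2A, H2B, H3 and H4, and H1 binds the DNA between cores. The replication-dependent histones are made mainly in S phase, when new DNA has to be packed, and H3.1 is placed on it by the chaperone CAF-1. H3.3 is made throughout the cell cycle and is deposited mainly at transcribed genes, H2A.Z is exchanged into nucleosomes near gene starts by the SWR1 complex, H2A.X is phosphorylated near DNA breaks, and H2A.W is a plant form of heterochromatin. Dividing cells of the inflorescence lie in its meristems and young organs.

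The coding sequences of TAIR10.1 (RefSeq) show how close the classes are. The 8 H4 genes encode a single protein of 103 residues although their coding bases are only 78.9% to 98.1% identical between genes, the 5 H3.1 genes encode a single protein of 136 residues, and the 3 H3.3 genes encode another of 136 residues. The H3.1 and H3.3 proteins differ at residues 31, 41, 87 and 90, counted without the initiator methionine. The stretch below covers codons 84 to 93, counted in the same way, of the most abundant gene of each form, and holds the last 2 of those residues. Capitals mark the bases that differ between the genes.
H3.1 AT5G65360: ttccagagcAGCgcCgtcGCagcActTcag
H3.3 AT4G40030: ttccagagcCATgcTgtcTTagcTctCcag
Over the whole coding sequence 95 of 411 bases differ, so reads of the H3.1 and H3.3 genes can be told apart. For the H2A classes, the last 10 codons before the stop are shown for the most abundant gene of each. Capitals mark a serine and a glutamine codon followed by exactly 2 more codons, an end found in both H2A.X genes and in no other H2A member.
H2A HTA10: ggtgcttccaagccatctgctgaagacgat
H2A.X H2AXA: ggagatattggatctgctTCTCAGgagttc
H2A.W HTA6: aaatcaccagtcaagtctccaaagaaagct
H2A.Z HTA9: aagagtctcatcaacaaatccgccaaggaa

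The promoters were searched on both strands from 250 bases before to 50 bases after the annotated start for motifs known from plant histone genes. The octamer CGCGGATC was present in 10 of the 39 windows (25.6%) against 40 of 27443 windows of all protein-coding genes of the table (0.146%). It was found in 2 of 8 H4, 3 of 5 H3.1, 2 of 4 canonical H2A and 0 of 8 H2B genes, and outside the replication-dependent classes in the H3.3 gene AT4G40040, the H2A.W gene HTA6 and the H1 gene AT1G06760. Its 12 copies lay 10 to 126 bases before the start, with a median of 72.5. A window around the octamer, in capitals, is printed for 5 genes in the direction of transcription, and GATCCGCG is the same octamer on the other strand.
H4 AT5G59690, chr5:24051389-24051424, plus strand: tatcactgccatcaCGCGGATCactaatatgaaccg
H3.1 AT5G65360, chr5:26120686-26120721, minus strand: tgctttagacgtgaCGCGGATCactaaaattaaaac
H2A HTA13, chr3:7229308-7229343, plus strand: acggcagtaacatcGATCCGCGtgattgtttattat
H2A.W HTA6, chr5:24116315-24116350, minus strand: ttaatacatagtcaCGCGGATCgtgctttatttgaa
H1 AT1G06760, chr1:2077774-2077809, minus strand: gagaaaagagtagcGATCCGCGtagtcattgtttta
A match of these letters is a description and not a shown binding site.

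The hexamer ACGTCA was present in 8 of 8 H2B windows, in 12 of 39 member windows (30.8%) and in 9.19% of all windows. The H2B windows without the octamer are shown with the hexamer in capitals for 4 genes that behave differently further on.
H2B HTB11, chr3:16914199-16914234, minus strand: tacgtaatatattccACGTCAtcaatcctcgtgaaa
H2B AT2G37470, chr2:15736664-15736699, plus strand: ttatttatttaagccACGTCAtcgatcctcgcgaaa
H2B HTB1, chr1:2412892-2412927, plus strand: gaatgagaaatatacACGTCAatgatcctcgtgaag
H2B AT3G53650, chr3:19889186-19889221, plus strand: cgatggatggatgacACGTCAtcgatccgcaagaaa
Letters of an E2F-type site (TTTCCCGC, TTTGGCGC, TTTCGCGC or TTTGCCGC) were present in 3 of 39 windows, against 1.76% of all. Both H4 genes among them share the same stretch, shown with the site in capitals.
H4 AT3G46320, chr3:17020643-17020678, minus strand: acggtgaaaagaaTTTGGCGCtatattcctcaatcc
H4 AT3G45930, chr3:16883066-16883101, plus strand: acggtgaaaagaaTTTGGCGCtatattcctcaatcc
TATAAA was present in 22 of 39 windows (56.4%) and in 52.1% of all, and in 0 of the 3 H3.3 windows. The plot of motif positions shows all 4 motifs by distance from the start.

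**Figure D1:**
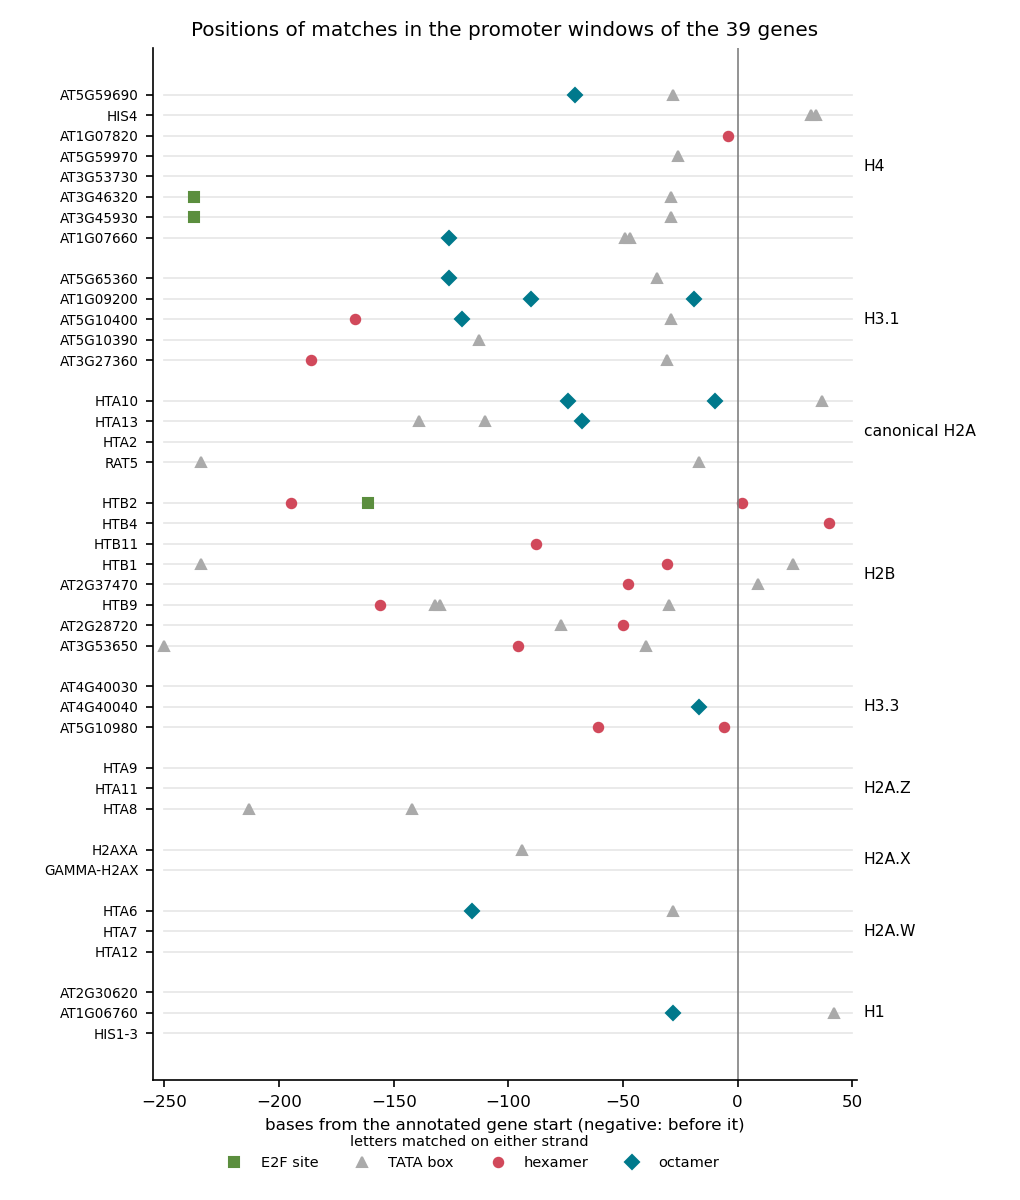
Positions of the octamer, the hexamer, the E2F-type site and TATAAA in the promoter windows of the 39 histone genes; the x axis is the distance from the annotated start in bases and each row is a gene, ordered by class. The hexamer is seen in all 8 H2B rows, which hold no octamer.

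The raised genes were examined first as a check of the labels. DVL1 was 525 to 612 RPKM (reads per unit of gene length and of sequencing depth) in dvl1-1D and at most 0.0881 in any other library, and DVL8 was 152 to 173 RPKM in 35S:DVL8 and at most 0.238 elsewhere. Among the mutated genes DVL19 and RTFL9 were listed at 0 in all 15 libraries, DVL1 at 0 in wild type as well, and RTFL11 lay between 0.162 and 0.657 RPKM, so their losses could not be checked from levels. DVL11, mutated in both quintuples, was 0.992 to 1.46 RPKM in the rtfl9 quintuple, below every other library, but 1.84 to 2.24 in the dvl1 quintuple, which overlapped the wild type range of 1.74 to 2.49. A mutation can leave the transcript in place, so the level of DVL11 does not decide the label of the dvl1 quintuple. Reads assigned to genes numbered 22471893 to 36589877 per library. A count of genes lying more than 2-fold from both fellow replicates set a pair of libraries apart, 35S:DVL8 replicate 2 with 87 such genes and rtfl9 quintuple replicate 4 with 61, while each of the remaining 13 libraries had 5 to 39. Fold changes below are log2 differences of RPKM + 1 with their standard error (SE). All of limma's p-values were adjusted over all 20223 genes tested, and a gene is called where the adjusted p is under 0.05. The histone genes were well covered, since the least abundant of them, HIS1-3, had 135 to 219 reads per group and all others at least 339.

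The classes differed in how much of their transcript came from 1 gene. HTB2 was the most abundant of all members with a mean of 315 RPKM over the 15 libraries, followed by AT4G40030 (H3.3) with 286 and HTB4 (H2B) with 271. HIS1-3, the H1 gene known for its response to drought, was the least abundant with 2.06 RPKM. Within classes, the leading gene supplied 26.5% of H4 (AT5G59690), 36.8% of H3.1 (AT5G65360), 43.5% of canonical H2A (HTA10), 30.0% of H2B (HTB2), 37.8% of H3.3 (AT4G40030), 60.3% of H2A.Z (HTA9), 91.0% of H2A.X (H2AXA), 65.5% of H2A.W (HTA6) and 59.1% of H1 (AT2G30620). The order of genes within a class held in all 15 libraries for every pair of neighbours but 5. The exceptions were HIS4 above AT1G07820 (14 of 15 libraries), AT5G59970 above AT3G53730 (9), AT3G53730 above AT3G46320 (11), HTB9 above AT2G28720 (14) and AT4G40030 above AT4G40040 (13). The 39 genes together took 0.348% to 0.462% of the reads assigned to genes.

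**Figure D2:**
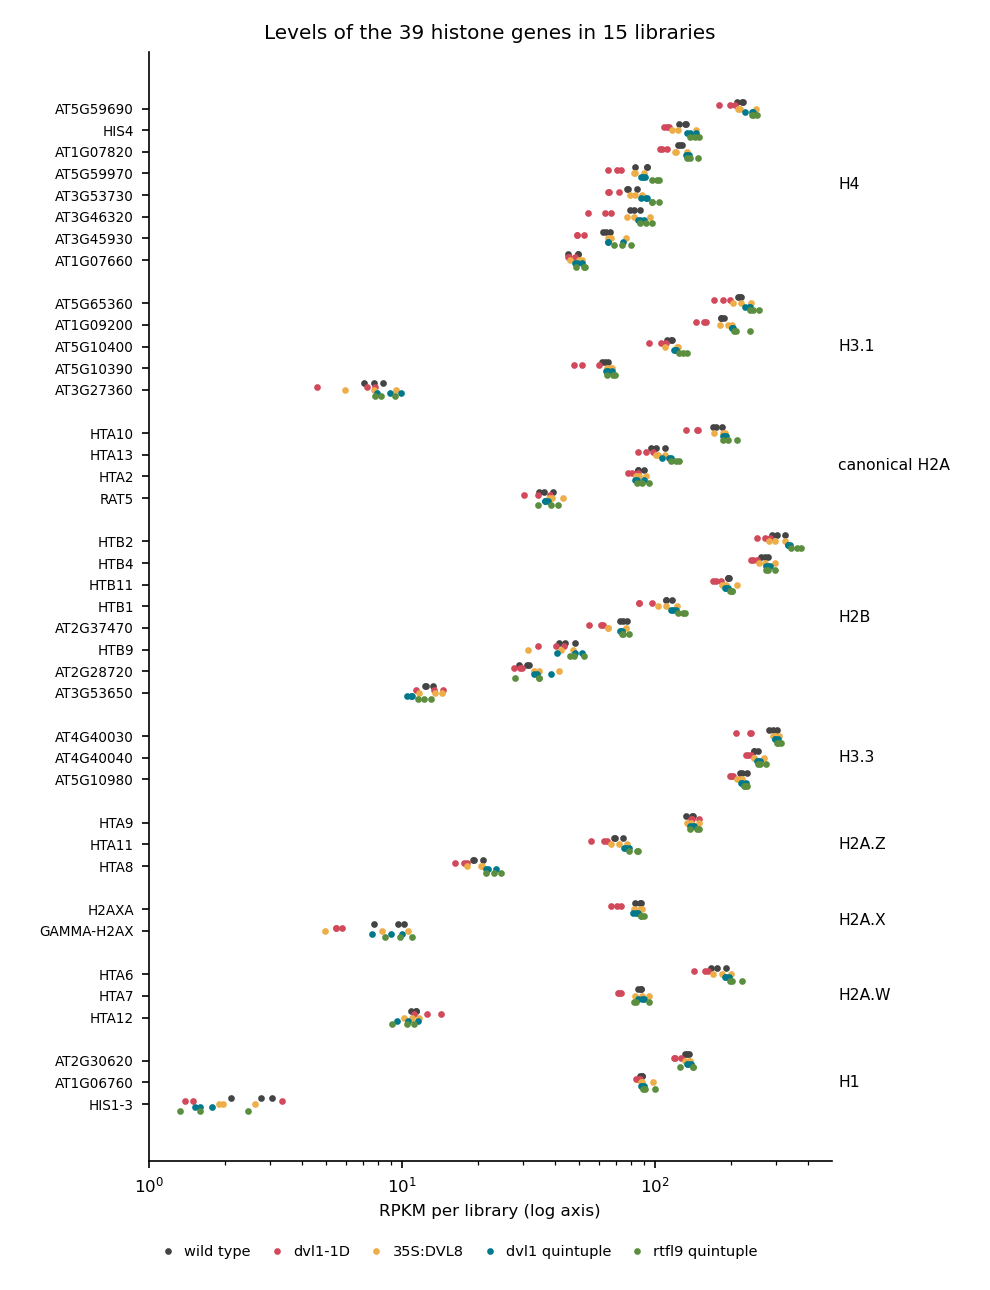
RPKM on a log axis of each of the 39 histone genes in each of the 15 libraries, with points coloured by group and genes ordered by class and level. The mean is lowest in dvl1-1D for 35 genes and highest in the rtfl9 quintuple for 32, while the mean levels of the genes span from 2.06 to 315 RPKM.

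Setting dvl1-1D against wild type asks which histone genes differ where DVL1 is high. Of the 39 genes, 24 were lower in dvl1-1D and 0 higher, where 30.8% of all genes tested were called in either direction and 14% were called lower. The log2 difference was below 0 for 36 of the 39 genes, against 45% of all genes tested, and its median was -0.20, against 0.02 for all genes tested. Replication-dependent genes were lower in 15 of 25 (median -0.22) and variants in 6 of 8 (median -0.20). Of the others, 2 of 3 H2A.W genes and 1 of 3 H1 genes were lower. The libraries of dvl1-1D and wild type did not overlap for 27 of the 39 genes, all lower in dvl1-1D, whereas 20.9% of all genes tested were lower without overlap. Another scaling of the libraries moves the background: of the calls over all genes, 54.4% were higher in dvl1-1D as deposited and 43.9% after median-of-ratios scaling. Replicate 3 of dvl1-1D was the lowest of its group for 27 of the 39 genes, and without it 16 genes were called and the medians of replication-dependent and variant genes were -0.14 and -0.16. With each library left out in turn, 14 of the 24 genes were called every time. The 10 that lost their call at least once were AT5G65360, HIS4, HTA11, HTB11, GAMMA-H2AX, HTB2, HTA6, AT2G30620, HTA8 and HTB4.

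**Figure D3:**
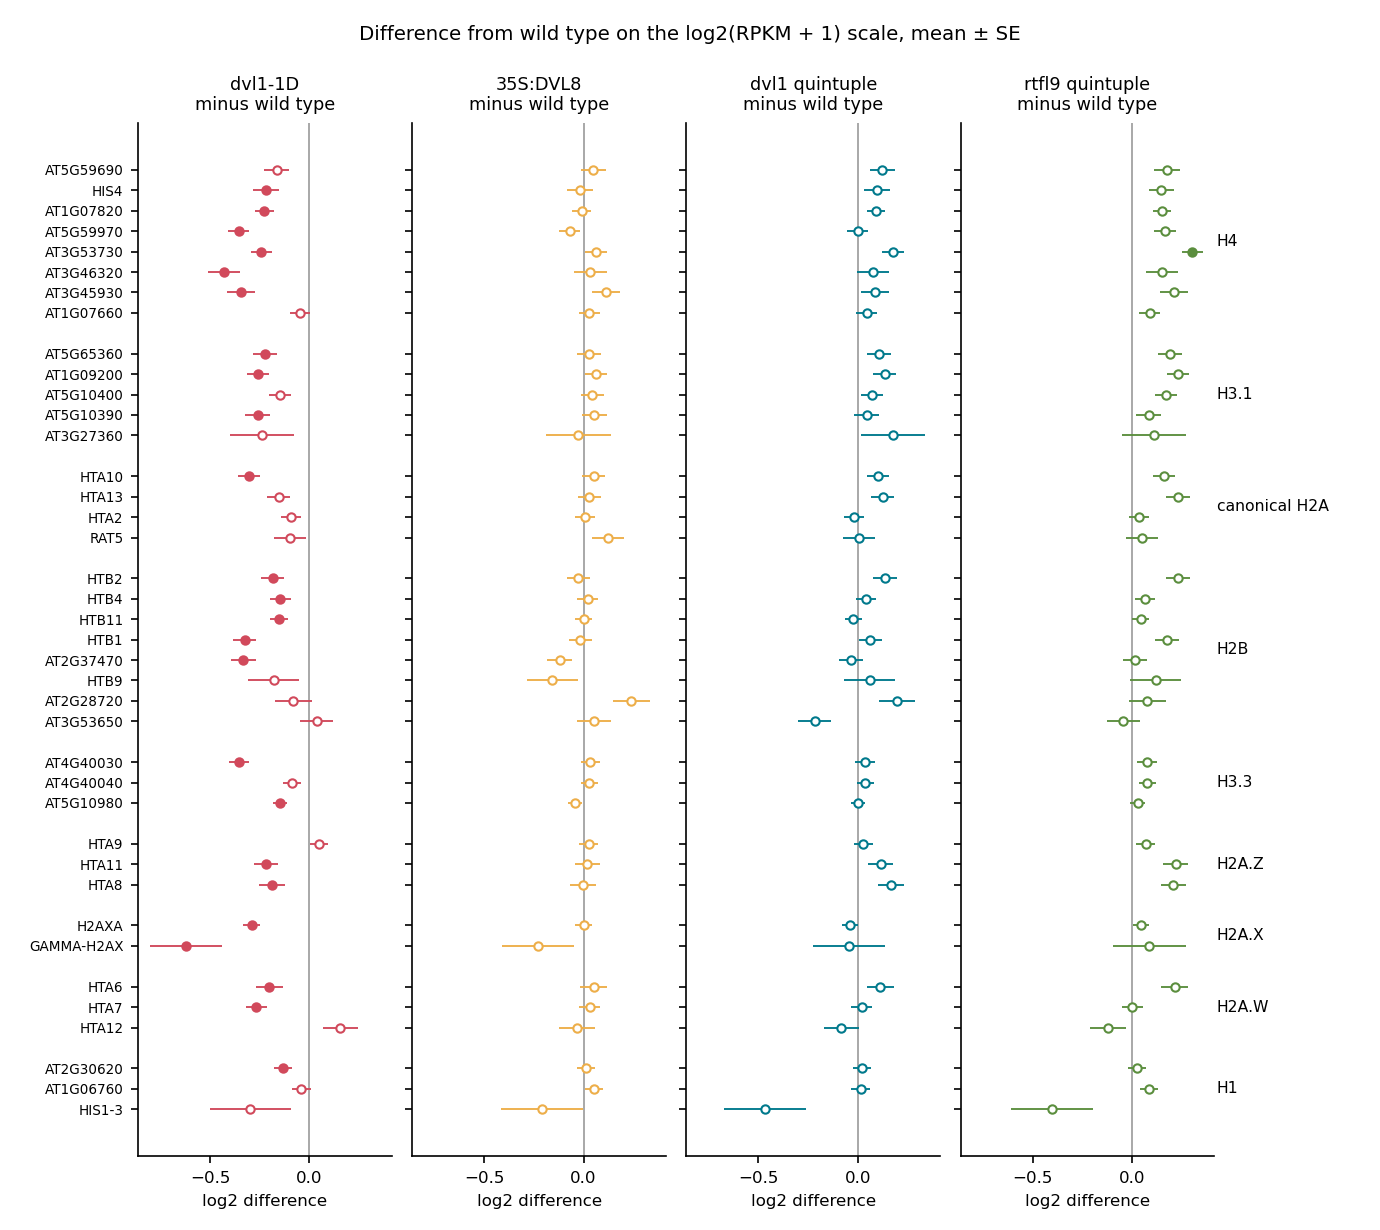
Log2 difference from wild type of each of the 39 histone genes in the 4 other groups, as mean ± SE, with filled symbols for adjusted p under 0.05. In dvl1-1D 36 of 39 genes lie below 0, in the rtfl9 quintuple 36 of 39 lie above 0, and in 35S:DVL8 the genes scatter around 0.

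Histone H4 binds H3 at the centre of the nucleosome. Of its 8 genes, 6 were lower in dvl1-1D, with differences between -0.22 (HIS4) and -0.43 (AT3G46320). The clearest of them by adjusted p was AT5G59970 (chr5:24145831-24146729, minus strand), with wild type values of 92.6, 82.9 and 92.8 RPKM, dvl1-1D values of 72.9, 70.7 and 65.2 and 35S:DVL8 values of 83.1, 82.4 and 89.9, beside 87.7, 89.1 and 91.3 with the dvl1 quintuple and 103, 96.8 and 101 with the rtfl9 quintuple. All dvl1-1D libraries lay below all others, and the rtfl9 quintuple libraries were the highest. The difference from wild type was -0.36 (SE 0.054, adjusted p = 0.000276), a fall of 22.2% in mean RPKM. AT3G53730 (chr3:19912385-19913515, minus strand) stood at 65.8, 71.9 and 65.0 RPKM in dvl1-1D against 77.6, 77.7 and 85.0 for wild type, with 79.2, 83.2 and 88.8 for 35S:DVL8, 91.8, 87.4 and 92.8 for the dvl1 quintuple and 103, 97.0 and 96.8 for the rtfl9 quintuple. It fell in dvl1-1D by 0.24 on the log2 scale (adjusted p = 0.0039), and its quintuple libraries all lay above wild type.

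The most abundant H4 gene, AT5G59690 (chr5:24051474-24052218, plus strand), had 219.7, 210.0 and 223 RPKM in the wild type libraries, 198, 206 and 179 in those of dvl1-1D and 216, 212 and 249.6 in those of 35S:DVL8, while the dvl1 quintuple gave 242, 226 and 244 and the rtfl9 quintuple 253, 242 and 244. The dvl1-1D libraries all lay below those of wild type, but the difference was not called (-0.16, SE 0.064, adjusted p = 0.0661). It was called after median-of-ratios scaling (adjusted p = 0.0226). AT1G07660, the least abundant H4 gene, had 48.0 RPKM in wild type and 46.4 in dvl1-1D (-0.05, adjusted p = 0.527), and its libraries overlapped. AT3G46320 and AT3G45930 fell by 0.43 and 0.35, with adjusted p = 0.0014 and 0.00218. Their exons share some sequence (2.22% and 2.02% of 150-base windows occur in another place in the genome), so a small part of their reads may not be assigned to the right copy.

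H3.1 is the H3 form placed on newly copied DNA. Of the 5 genes, 3 were lower in dvl1-1D. AT5G65360 (chr5:26119859-26120581, minus strand), the most abundant, had wild type values of 218, 213 and 216 RPKM, dvl1-1D values of 186, 197 and 171 and 35S:DVL8 values of 203, 239.9 and 218, beside 227, 236 and 234 with the dvl1 quintuple and 258, 237 and 244 with the rtfl9 quintuple. All dvl1-1D libraries were below all others, and the rtfl9 quintuple was highest on average. The difference from wild type was -0.22 (SE 0.060, adjusted p = 0.0118). AT1G09200 fell from 184 ± 2.26 RPKM (mean ± SD, n = 3) to 153 ± 7.45 (-0.26, adjusted p = 0.0033), and AT5G10390 from 63.5 ± 1.71 to 53.1 ± 6.22 (-0.26, adjusted p = 0.00679). AT5G10400 and AT5G10390 are neighbours on the same strand, 577 bases apart. AT5G10400 was 9.65% lower on average without overlap of libraries but was not called (adjusted p = 0.0625). AT3G27360, with 4.60 to 9.91 RPKM over all libraries, overlaps another gene, and reads cannot be assigned by strand in these data (-0.24, adjusted p = 0.29).

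Canonical H2A and H2B pair with each other in the nucleosome. HTA10 (chr1:18926811-18927746, plus strand) was the only one of the 4 canonical H2A genes to be called, with 147, 146 and 133 RPKM in dvl1-1D against 174, 169 and 184 for wild type, with 171, 189 and 186 for 35S:DVL8, 189, 185 and 191 for the dvl1 quintuple and 210.3, 194 and 186 for the rtfl9 quintuple. The dvl1-1D libraries were the lowest 3 of 15, and the difference from wild type was -0.31 (SE 0.056, adjusted p = 0.0011). HTA13, HTA2 and RAT5 differed by -0.16, -0.09 and -0.10, and their libraries overlapped those of wild type (adjusted p = 0.0581, 0.195 and 0.399). HTA13 overlaps another gene. RAT5 is known as the H2A gene needed for transformation by Agrobacterium.

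Of the 8 H2B genes 5 were lower in dvl1-1D, and 3 were not called. HTB1 (chr1:2412938-2413790, plus strand) had 111, 111 and 117 RPKM in the wild type libraries, 86.1, 97.1 and 86.2 in those of dvl1-1D and 111, 103 and 121 in those of 35S:DVL8, while the dvl1 quintuple gave 115, 117 and 121 and the rtfl9 quintuple 131, 123 and 128. All dvl1-1D libraries were below the 12 others, and HTB1 differed from wild type by -0.33 (SE 0.059, adjusted p = 0.00101). AT2G37470 (chr2:15736727-15737728, plus strand) had wild type values of 74.9, 72.7 and 77.2 RPKM, dvl1-1D values of 61.2, 62.2 and 54.7 and 35S:DVL8 values of 65.2, 65.1 and 76.8, beside 73.3, 72.6 and 73.7 with the dvl1 quintuple and 78.9, 74.2 and 74.1 with the rtfl9 quintuple. Again the dvl1-1D libraries were the lowest, with a difference of -0.33 (SE 0.062, adjusted p = 0.00123), and the libraries of 35S:DVL8 were uneven, replicate 3 being in the range of wild type.

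HTB2 (chr5:7651868-7652714, minus strand), the most abundant histone gene, had 272, 283 and 254 RPKM in dvl1-1D against 325, 291 and 304 for wild type, with 282, 298 and 325 for 35S:DVL8, 335, 334 and 341 for the dvl1 quintuple and 375, 342 and 364 for the rtfl9 quintuple. It fell by 12.1% in dvl1-1D (-0.19, SE 0.059, adjusted p = 0.0289), with 1 library of 35S:DVL8 inside the range of dvl1-1D. HTB4 and HTB11 fell by 0.15 and 0.15 (adjusted p = 0.048 and 0.0179). AT3G53650, the least abundant H2B gene, went the other way on average, with 12.4, 12.3 and 13.2 RPKM in the wild type libraries, 13.4, 14.5 and 11.3 in those of dvl1-1D and 13.5, 11.7 and 14.4 in those of 35S:DVL8, while the dvl1 quintuple gave 10.4, 10.8 and 11 and the rtfl9 quintuple 13, 12.2 and 11.5. Its libraries overlapped between dvl1-1D and wild type (0.04, SE 0.084, adjusted p = 0.766), and those of the dvl1 quintuple were the lowest. HTB9 and AT2G28720 were not called either (-0.18 and -0.08), and HTB9 overlaps other genes.

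H3.3 is the replacement form of H3, made outside S phase as well. AT4G40030 (chr4:18555532-18557106, minus strand) had the smallest adjusted p of all 39 genes in dvl1-1D, with wild type values of 283, 302 and 293 RPKM, dvl1-1D values of 208, 238 and 239.8 and 35S:DVL8 values of 293, 297 and 308, beside 298, 305 and 296 with the dvl1 quintuple and 315, 304 and 307 with the rtfl9 quintuple. The dvl1-1D libraries stood clearly below the other 12, which lay close together. The difference from wild type was -0.36 (SE 0.050, adjusted p = 0.000162), a fall of 21.8%. Its neighbour AT4G40040 (chr4:18557149-18558945, minus strand), 42 bases away on the same strand and encoding the same protein, had 229, 240.0 and 233 RPKM in dvl1-1D against 246, 254 and 246 for wild type, with 246, 245 and 269.9 for 35S:DVL8, 252, 259 and 254 for the dvl1 quintuple and 254, 259 and 275 for the rtfl9 quintuple. The dvl1-1D libraries again lay below wild type, with a difference of -5.86% in mean RPKM that was not called (-0.09, SE 0.043, 95% interval -0.18 to 0.01, adjusted p = 0.148). It was called after median-of-ratios scaling (-0.12, adjusted p = 0.0337).

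The ratio of AT4G40030 to AT4G40040 shows the unequal change within each library. Wild type libraries gave ratios of 1.15, 1.19 and 1.19, those of dvl1-1D gave 0.909, 0.991 and 1.03, and the 9 other libraries lay between 1.12 and 1.24. All dvl1-1D ratios were below all others, so that the order of the pair was reversed in 2 dvl1-1D libraries. An exact permutation test of 3 against 3 libraries cannot go below p = 0.1, and none is given, since the pair was picked after its values were seen. The third H3.3 gene, AT5G10980, had 216, 220.3 and 231 RPKM in the wild type libraries, 198, 200.2 and 204 in those of dvl1-1D and 209.6, 219.6 and 218 in those of 35S:DVL8, while the dvl1 quintuple gave 219.8, 219 and 229 and the rtfl9 quintuple 226, 224 and 230.3. It fell by 9.82% in dvl1-1D (-0.15, adjusted p = 0.00705), with no overlap with wild type.

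**Figure D4:**
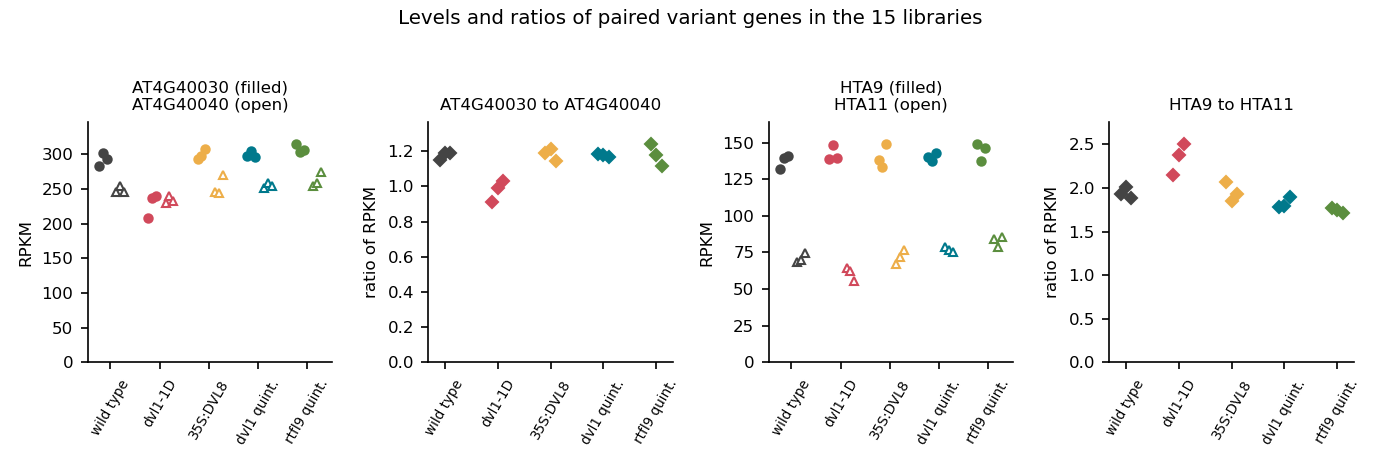
RPKM and ratio of RPKM in each of the 15 libraries, by group, for a pair of H3.3 genes and a pair of H2A.Z genes; filled and open symbols are the genes named over each panel and diamonds their ratio. AT4G40030 to AT4G40040 lies at 0.909 to 1.03 in dvl1-1D and at 1.12 to 1.24 elsewhere, and HTA9 to HTA11 lies at 2.15 to 2.51 in dvl1-1D and at 1.71 to 2.07 elsewhere.

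H2A.Z marks nucleosomes near gene starts and in repressed, responsive genes. HTA9 (chr1:19645236-19646485, plus strand), its most abundant gene, had wild type values of 132, 139.5 and 141 RPKM, dvl1-1D values of 139, 149 and 139 and 35S:DVL8 values of 138, 133 and 149, beside 140.5, 137 and 143 with the dvl1 quintuple and 149, 137 and 147 with the rtfl9 quintuple. The groups overlapped, and the difference in dvl1-1D was 0.05 (SE 0.047, 95% interval -0.05 to 0.15, adjusted p = 0.473). HTA9 overlaps another gene. HTA11 had 64.6, 62.5 and 55.6 RPKM in dvl1-1D against 68.7, 69.6 and 74.6 for wild type, with 66.8, 72.1 and 77.0 for 35S:DVL8, 79.0, 76.7 and 75.0 for the dvl1 quintuple and 84.4, 78.5 and 85.6 for the rtfl9 quintuple. Its dvl1-1D libraries were the lowest 3 and those of the rtfl9 quintuple the highest on average, with a difference from wild type of -0.22 (SE 0.062, adjusted p = 0.0158).

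HTA8, the third H2A.Z gene, had 20.9, 19.2 and 19.1 RPKM in the wild type libraries, 18, 17.6 and 16.1 in those of dvl1-1D and 18, 20.4 and 20.6 in those of 35S:DVL8, while the dvl1 quintuple gave 23.4, 21.4 and 21.9 and the rtfl9 quintuple 23.0, 21.5 and 24.5. It was lower in dvl1-1D (-0.19, SE 0.065, adjusted p = 0.0444), and the quintuple libraries all lay above those of wild type. The ratio of HTA9 to HTA11 was 1.93, 2.01 and 1.88 for wild type, against 2.15, 2.38 and 2.51 for dvl1-1D. It ran from 1.85 to 2.07 for 35S:DVL8, from 1.78 to 1.90 for the dvl1 quintuple and from 1.71 to 1.77 for the rtfl9 quintuple, so the 3 dvl1-1D libraries were the highest and the 3 libraries of the rtfl9 quintuple the lowest.

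H2A.X carries the serine that is phosphorylated at DNA breaks, and both of its genes were lower in dvl1-1D. H2AXA (chr1:2846894-2848100, minus strand) had wild type values of 87.7, 83.0 and 86.9 RPKM, dvl1-1D values of 72.9, 70.4 and 66.8 and 35S:DVL8 values of 82.0, 88.9 and 86.8, beside 85.5, 81.4 and 83.8 with the dvl1 quintuple and 90.4, 87.8 and 87.9 with the rtfl9 quintuple. The dvl1-1D libraries were the lowest 3, and the other 12 lay within a narrow range. The difference from wild type was -0.29 (SE 0.041, adjusted p = 0.000187), a fall of 18.4%. GAMMA-H2AX had 5.45, 5.76 and 5.46 RPKM in dvl1-1D against 10.2, 9.59 and 7.71 for wild type, with 8.29, 4.97 and 10.5 for 35S:DVL8, 9.02, 7.56 and 9.96 for the dvl1 quintuple and 9.84, 8.54 and 10.9 for the rtfl9 quintuple. The dvl1-1D libraries were below wild type, but replicate 2 of 35S:DVL8, which stands apart from its group, was lower still. The difference was -0.62 (SE 0.183, adjusted p = 0.0195), from 610 reads in wild type and 339 in dvl1-1D. GAMMA-H2AX overlaps other genes, and its call was lost without wild type replicate 1 or 2 (adjusted p = 0.0737 and 0.061). The call was lost as well without dvl1-1D replicate 1 or 3 (adjusted p = 0.054 and 0.0502).

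H2A.W is a plant H2A of heterochromatin. HTA6 (chr5:24115354-24116220, minus strand) had 175, 167 and 191 RPKM in the wild type libraries, 158, 162 and 143 in those of dvl1-1D and 169, 183 and 199.7 in those of 35S:DVL8, while the dvl1 quintuple gave 189.7, 189 and 196 and the rtfl9 quintuple 220.0, 201 and 198. The dvl1-1D libraries were the lowest 3 and the difference was -0.20 (SE 0.068, adjusted p = 0.0353). HTA7 fell from 86.9 ± 1.09 to 72.0 ± 1.02 RPKM (mean ± SD, n = 3, difference -0.27, adjusted p = 0.00193). HTA12, with 9.12 to 14.2 RPKM over all libraries, differed by 0.16 and was not called (adjusted p = 0.207); it overlaps another gene.

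Linker histone H1 binds outside the core particle. AT2G30620 (chr2:13044931-13046682, plus strand) had wild type values of 136, 133 and 131 RPKM, dvl1-1D values of 119.8, 118 and 126 and 35S:DVL8 values of 137, 131 and 136, beside 139, 135 and 133 with the dvl1 quintuple and 141, 141 and 126 with the rtfl9 quintuple. Its dvl1-1D libraries lay below wild type by a small step (-0.13, SE 0.045, adjusted p = 0.0368), and replicate 4 of the rtfl9 quintuple fell among them. AT1G06760 had 83.6, 85.5 and 87.4 RPKM in dvl1-1D against 86.8, 88.3 and 88.6 for wild type, with 88.8, 87.7 and 97.8 for 35S:DVL8, 88.5, 90.6 and 87.4 for the dvl1 quintuple and 99.4, 91.4 and 89.6 for the rtfl9 quintuple. The difference of AT1G06760 was -0.04 (SE 0.046, 95% interval -0.14 to 0.06, adjusted p = 0.553). AT2G30620 and AT1G06760 overlap other genes. HIS1-3 had 2.10, 3.07 and 2.78 RPKM in the wild type libraries, 1.49, 1.38 and 3.34 in those of dvl1-1D and 2.61, 1.96 and 1.89 in those of 35S:DVL8, while the dvl1 quintuple gave 1.77, 1.52 and 1.59 and the rtfl9 quintuple 1.32, 1.58 and 2.45. Its libraries were scattered at this low level, and HIS1-3 was not called (-0.30, SE 0.206, adjusted p = 0.301).

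Summed over a class, RPKM shows the size of the pool. H4 summed to 707 ± 35.1 RPKM in dvl1-1D (mean ± SD, n = 3) against 836 ± 24.3 for wild type, with 851 ± 67.1 for 35S:DVL8, 894 ± 29.0 for the dvl1 quintuple and 946 ± 34.7 for the rtfl9 quintuple. Relative to wild type, the means in dvl1-1D differed by -15.4% for H4, -14.3% for H3.1, -12.9% for canonical H2A and -12.2% for H2B. Those of the variants differed by -13.1% for H3.3, -3.41% for H2A.Z and -20.4% for H2A.X, those of H2A.W by -13.4% and those of H1 by -6.63%. Replication-dependent genes together went from 2869 to 2477 RPKM (-13.7%) and variants from 1086 to 959 RPKM (-11.7%). The share of the replication-dependent genes in both classes was 71.8% to 73.2% in wild type and 70.9% to 72.8% in dvl1-1D. These ranges overlap, so the balance of replication-dependent genes and variants was not set apart beyond the spread between libraries. The sums themselves did not overlap. Replication-dependent genes summed to 2336 to 2596 RPKM in dvl1-1D and 2786 to 2914 in wild type. Variants summed to 935 to 983 and 1064 to 1098 RPKM.

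The makeup of the H3 and H2A families was compared next. H3.1 made up 43.4% of H3.1 and H3.3 in wild type and 43.0% in dvl1-1D. Its share was 42.72% to 43.95% in the wild type libraries. The quintuples lay above that range, at 44.47% to 44.81% with dvl1 and 44.49% to 47.04% with rtfl9. H2A.Z made up 22.1% to 23.6% of the H2A transcripts in wild type and 24.8% to 25.2% in dvl1-1D, without overlap, while H2A.X made up 9.51% and 8.56% on average. The higher share of H2A.Z goes with HTA9, whose level overlapped wild type while most other H2A genes were lower. These shares are given as a description, with no test.

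**Figure D5:**
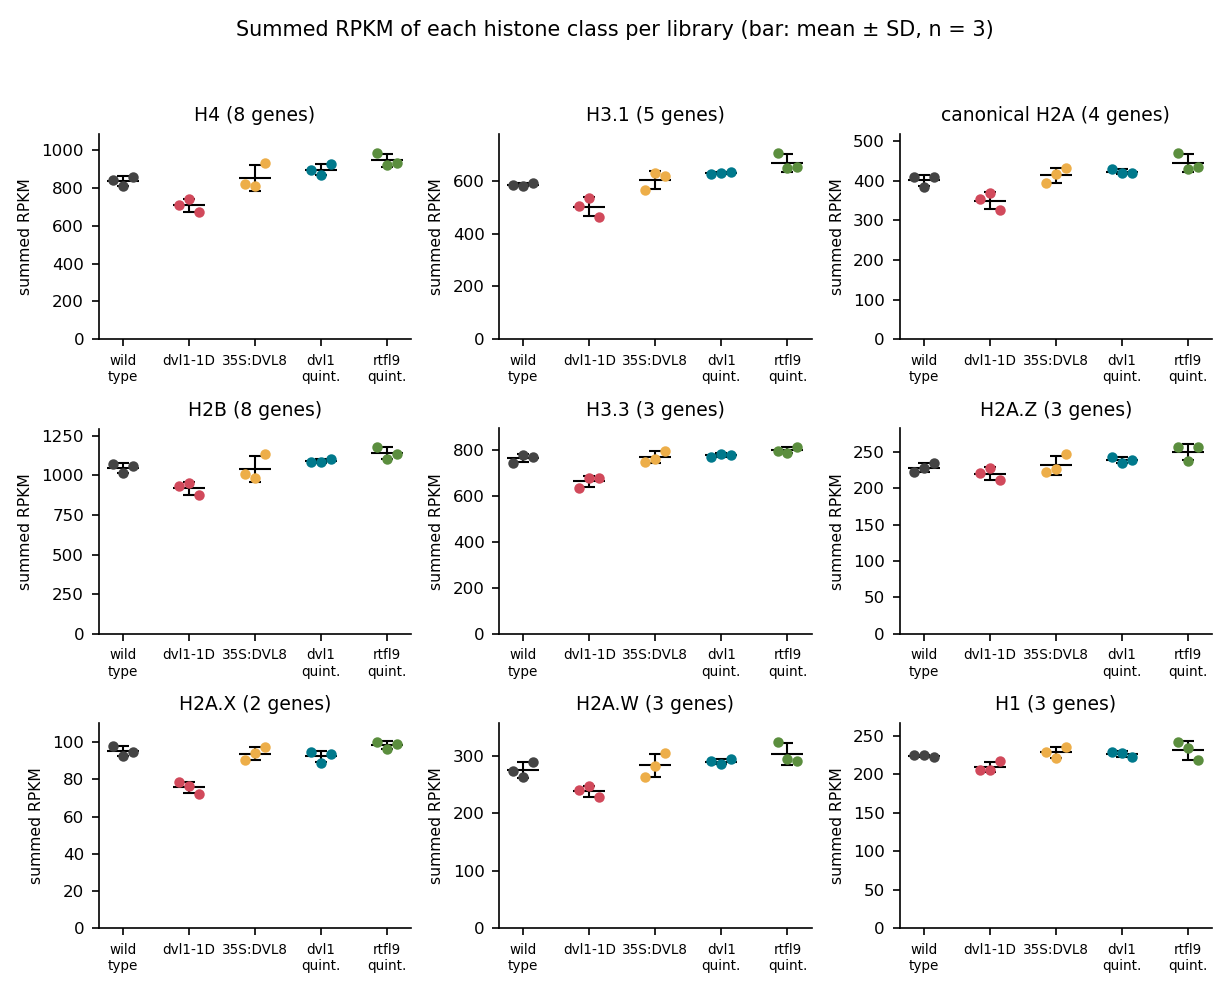
Summed RPKM of the 9 histone classes in each library, by group, on axes that start at 0, with points for libraries and bars for the mean ± SD (n = 3). All classes but H2A.Z lie lower in dvl1-1D than in wild type without overlap, and the rtfl9 quintuple has the highest mean in each class.

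The line with high DVL8 was set against wild type in the same way. Of the 39 histone genes 0 were called by limma, where 0.138% of all genes tested were called, and 1 had an unadjusted p under 0.05 against 10.5% of all genes. That gene was the H2B gene AT2G28720, with 31.6, 28.9 and 31.3 RPKM in wild type and 34.7, 33.2 and 41.6 in 35S:DVL8. The libraries did not overlap, but the adjusted p was 0.337 (0.24). The differences of the 39 genes ran from -0.23 to 0.24 with a median of 0.03, and the summed classes differed by 1.43% for replication-dependent genes and 0.776% for variants. Replicate 3 of 35S:DVL8 was the highest of its group for 30 of the 39 genes.

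The quintuple mutants ask whether the loss of several DVL and RTFL genes changes histone levels. In the dvl1 quintuple 0 of 39 genes were called by limma, where 0.0297% of all genes were called, and 8 had an unadjusted p under 0.05 against 7.75% of all genes. The median difference was 0.05, 31 of 39 genes lay above 0 against 55.9% of all genes, and 12 were above wild type without overlap against 9.3% of all genes. In the rtfl9 quintuple 1 gene was called, the H4 gene AT3G53730, where 1.23% of all genes were called and 0.321% were called higher. Its difference was 0.30 (SE 0.054, adjusted p = 0.0284), a rise of 23.7% in mean RPKM from 80.1 to 99.1. The call rests on all libraries together: it was lost in 5 of the 6 fits that left out a library of either group (adjusted p = 0.0604 to 0.153), and remained only without rtfl9 quintuple replicate 2 (adjusted p = 0.0495). With the replicate number as a block it was lost too (adjusted p = 0.159).

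Below the threshold in the rtfl9 quintuple, AT1G09200 (H3.1) followed with 0.23 (adjusted p = 0.0626), then HTA13 with 0.23 (adjusted p = 0.0745), HTB2 with 0.23 (adjusted p = 0.0773) and HTA11 with 0.22 (adjusted p = 0.108). The median over the 39 genes was 0.09, that of replication-dependent genes 0.15 and that of variants 0.08. In all, 36 of 39 genes lay above 0 against 57% of all genes, 21 lay above wild type without overlap against 12% of all genes, and 16 had an unadjusted p under 0.05 against 15.8% of all genes. Summed H4 was 13.1% above wild type, H3.1 14.2%, H3.3 4.53% and H2A.Z 9.65%. Replicate 1 of the rtfl9 quintuple was the highest of its group for 27 genes. All 4 comparisons above use the same wild type libraries, so they are not independent of each other.

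Between dvl1-1D and 35S:DVL8, 26 of the 39 histone genes were lower in dvl1-1D and 0 higher, where 32.4% of all genes were called in either direction and 13.8% lower. As deposited 57.3% of the calls over all genes were higher in dvl1-1D, and 44.8% after median-of-ratios scaling. By class these were 18 of 25 replication-dependent genes and 5 of 8 variants, with a median of -0.21 over all 39. The smallest adjusted p were those of AT4G40030 (-0.39, SE 0.050, adjusted p = 8.23e-05), H2AXA (-0.29, SE 0.041, adjusted p = 0.000191) and the H4 gene AT3G45930 (-0.46, SE 0.070, adjusted p = 0.000307). AT3G45930 had 48.9, 52.5 and 49.1 RPKM in dvl1-1D and 67.0, 65.1 and 76.6 in 35S:DVL8. These do not overlap. The wild type values of 63.6, 62.2 and 66.3 lay above those of dvl1-1D and overlapped those of 35S:DVL8. The count of 26 rests in part on single libraries. It was 16 without replicate 3 of dvl1-1D, 14 without replicate 3 of 35S:DVL8 and 17 when only the libraries of both lines were fitted.

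Between the dvl1 quintuple and the rtfl9 quintuple 0 genes were called by limma, where 0.0148% of all genes were called, and 2 had an unadjusted p under 0.05 against 4.39% of all genes. Both overexpression lines together against both quintuples gave 28 lower and 1 higher of 39 genes, where 32% of all genes were called and 17.2% lower. AT3G53730 led with -0.33 (SE 0.038, adjusted p = 5.79e-05), then AT5G59970 with -0.30 (SE 0.038, adjusted p = 0.00011) and the H4 gene AT1G07820 with -0.24 (SE 0.033, adjusted p = 0.000172). AT1G07820 averaged 107 RPKM in dvl1-1D and 125 in 35S:DVL8, the quintuples averaging 134 with dvl1 and 139 with rtfl9, beside 125 for wild type. The pooled difference thus joins a low group to one near wild type. The overexpression libraries all lay below those of the quintuples for 2 of the 39 genes, HTB2 and HTA8. Of all genes tested, 3% were lower without overlap in the same way. AT3G53650 was the gene higher in the overexpression lines (0.18, adjusted p = 0.0361). By group means, dvl1-1D was the lowest of the 5 groups for 35 of the 39 genes and the rtfl9 quintuple the highest for 32.

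The promoter matches were set beside the calls. In dvl1-1D 4 of the 10 genes with the octamer were lower (median -0.16) and 20 of the 29 without it (median -0.22), where 14% of all genes tested were called lower. Outside the histone genes, 4 of the 23 tested protein-coding genes with the octamer were lower (median 0.08). Of the 8 H2B genes, all with the hexamer, 5 were lower, so the stretches printed above for HTB1 and AT2G37470, which fell, and for AT3G53650, which was not called, hold the same 6 letters. The windows with an E2F-type site belong to AT3G46320, AT3G45930 and HTB2, all lower in dvl1-1D. The call of HTB2 by limma was lost without wild type replicate 1 (adjusted p = 0.122). Within the H3.3 pair the octamer is in the window of AT4G40040 and not in that of AT4G40030, which fell. These counts are descriptions of small groups of genes, and no test was made of them.

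Histone chaperones escort histones to and from DNA. Of 23 listed genes for chaperones, exchange complexes and H3.1 readers, all tested, 9 were lower and 0 higher in dvl1-1D (median -0.13), where 14% of all genes tested were called lower. NAP1;3 and NRP1, members of the NAP1 family that bind H2A and H2B, fell from 41.0 to 31.1 and from 91.3 to 69.6 RPKM (-0.39, adjusted p = 0.00011, and -0.39, adjusted p = 0.00031). ARP6, a subunit of the SWR1 complex that deposits H2A.Z, fell by 0.29 (adjusted p = 0.00253) and NAP1;1 by 0.18 (adjusted p = 0.0125). The others that fell were FAS1 of CAF-1, NRP2, TSK and the HIRA complex genes AT1G77310 and AT4G32820. FAS2, MSI1, HIRA, both FACT genes and both ASF1 genes were not called. In each other group 0 of the 23 genes were called against wild type by limma. At an unadjusted p under 0.05 there were 1, 1 and 4 of them in 35S:DVL8, the dvl1 quintuple and the rtfl9 quintuple, beside 10.5%, 7.75% and 15.8% of all genes.

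Genes of S phase were taken as the other side of replication. Of 16 listed genes 11 were lower in dvl1-1D and 1 higher (median -0.23), where 14% of all genes tested were called lower and 30.8% in either direction. TSO2 and RNR1, subunits of the ribonucleotide reductase that makes DNA precursors, fell from 57.8 to 40.8 RPKM (-0.49, adjusted p = 3.6e-05) and from 53.1 to 41.2 (-0.36, adjusted p = 0.000522). MCM2 and PRL, subunits of the replicative helicase, fell by 0.21 (adjusted p = 0.00488) and 0.23 (adjusted p = 0.00929). E2F1, also known as E2FB, a transcription factor of the cell cycle, rose by 0.26 (adjusted p = 0.0476). In the other groups 0 of the 16 genes were called against wild type by limma, and 1, 2 and 5 had an unadjusted p under 0.05 in the same order of groups, where the shares of all genes are those just given. Of 10 further histone genes, among them the centromeric HTR12 and the sperm form MGH3, 5 passed the filter and 0 were called by limma against wild type in any group, with 3 of the 5 at an unadjusted p under 0.05 in dvl1-1D (41.3% of all genes) and 1 in the rtfl9 quintuple. HTR12 averaged 7.53 RPKM in wild type and 6.44 in dvl1-1D, and AT3G09480 averaged 5.05 and 4.02. HTR11 and MGH3 went the other way on average, from 4.48 to 5.88 and from 4.44 to 5.46 RPKM. The median log2 difference of the 5 genes tested was -0.06 in dvl1-1D.

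Markers of dividing cells and of other flower tissues were read beside the histone genes in dvl1-1D. The 3 mitosis markers summed to 81.8 to 87.2 RPKM in wild type and 68.6 to 74.2 in dvl1-1D, with CYCB1;1 and CDKB2;1 lower (-0.32 and -0.33, adjusted p = 0.00941 and 0.000262) and KNOLLE (SYP111 in the annotation) not called. In the rtfl9 quintuple they summed to 87.4 to 97.4. The 4 tapetum markers summed to 585 to 671 RPKM in wild type and 809 to 1000 in dvl1-1D, where only GRP17, a pollen coat protein, was called (0.75, adjusted p = 0.00015). GRP17 went from 454.9 to 768 RPKM, whereas AT5G07230 and SHT were lower on average (67.7 and 60.6, 28.2 and 26.4 RPKM) and A7 was 71.1 and 77.0. The 7 pollen and sperm markers summed to 286 to 320 RPKM in wild type and 320 to 425 in dvl1-1D. Most of that sum was VGD1 (means of 286.3 and 339.1 RPKM), which was not called and whose libraries overlapped. Among the 4 that passed the filter only TIP1;3 was called, as higher (0.65, adjusted p = 0.00331). The sperm marker GEX2 was listed at 0 in both groups. Of the meristem markers STM was higher in dvl1-1D (0.31, adjusted p = 0.000393), WUS was not called, and CLV3 was at most 0.0472 RPKM in both groups. The green tissue markers RBCS1A and CAB1 were not called. The young seed markers FWA and AGL62 summed to 1.43 to 1.70 RPKM in wild type and 1.70 to 2.44 in dvl1-1D, where AGL62 was not called and FWA was below the filter. The part of these differences between tissues in the histone values was not tested.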

How the data were processed

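RNA sequencing of inflorescences gave the deposited table, in which the authors report RPKM for 37336 genes in 15 libraries. Per the series text, 5 of 20 samples were dropped by the authors as outliers, and the rule they used is not stated. The submitters' processing notes name cutadapt, HISAT2 and HTSeq without versions, and reads were counted without regard to strand, per the name of the table. The genome build is not stated. Of the gene identifiers, 37051 matched TAIR10.1 (RefSeq), which supplied names, positions and sequences, and 285 did not.

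RPKM values were whole multiples of the value of 1 read within 0.005 for 29911 of 29911 genes above 0, which gave the reads per library; 73.5% of the gene lengths implied by them equal the annotated exons. Each gene's level therefore rests on a known number of reads, and the spread between libraries sets the precision. Whether the independent replicates were grown together is unknown.

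Values were tested as log2(RPKM + 1) by limma (version 3.58.1, R version 4.3.3), using its mean-variance trend and a single fit of all 15 libraries. Genes were kept where 3 or more libraries reached an RPKM of 1. Tests were two-sided, 7 comparisons were made, and Benjamini-Hochberg adjustment covered all genes tested in each. Because of the pseudocount, fold changes of low genes are understated. Summaries used Python 3.11.15 with numpy 2.4.6, pandas 2.3.3 and matplotlib 3.10.9, and the fit was tested on simulated data.

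The 39 members and all lists were chosen with earlier results of these data known. Values in every library are given for the most abundant gene of each class, for all H3.3, H2A.Z, H2A.X and H1 genes, for up to 6 genes with the smallest adjusted p in a comparison with wild type, and for genes that stood out after their values were seen (AT2G28720, AT3G53650). Up to 3 genes are named for a comparison between lines and up to 4 for a list of chaperone or S phase genes.

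Among 23 pairs of libraries with the same replicate number, deviations from the group means correlated at -0.255 to 0.381, and 3 pairs were over 0.1. The highest value was that of replicate 4 of both quintuples. Deviations within a group of 3 libraries are tied to each other, so this check cannot decide whether the numbers pair the libraries. Alternatives were a pseudocount of 0.1, no filter or a filter of RPKM 5, median-of-ratios and quantile scaling, array weights, fits of only the groups compared, the replicate number as a block, and leaving out each library. A fit without both libraries that stand apart was added after seeing the data.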

Additional observations from a re-analysis of the deposited data

Results flagged for a closer look

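The change against wild type differed between dvl1-1D and 35S:DVL8 for 26 of the 39 histone genes, by limma's test of the direct contrast. In that contrast 32.4% of all genes tested were called in either direction and 13.8% were called lower in dvl1-1D. Among the genes with values in the text, the log2 difference of dvl1-1D minus 35S:DVL8 was -0.46 for AT3G45930, -0.31 for AT3G53730, -0.29 for AT5G59970, -0.22 for AT1G07820 and -0.21 for AT5G59690, all encoding H4. The H3.1 gene AT5G65360 differed by -0.25, and the H3.3 genes AT4G40030 and AT5G10980 by -0.39 and -0.11. The canonical H2A gene HTA10 differed by -0.36, and the H2B genes HTB1 and AT2G37470 by -0.31 and -0.21. Of the other H2A forms, H2AXA differed by -0.29, HTA6 by -0.25, HTA11 by -0.24 and HTA8 by -0.18, and the H1 gene AT2G30620 differed by -0.15. The count of 26 fell to 16 without dvl1-1D replicate 3 and to 14 without 35S:DVL8 replicate 3.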

How the results depend on the processing

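No call of a histone gene changed its sign under any alternative. The calls of chaperone, S phase and marker genes were not compared between alternatives. In dvl1-1D against wild type the 24 genes kept their sign throughout and 14 were called in each alternative, the count ranging from 16 to 24 with 1 library left out and from 21 to 28 otherwise. There the leave-one-out medians ran from -0.24 to -0.14 for replication-dependent genes and from -0.24 to -0.16 for variants, and median-of-ratios scaling took the summed variants from -11.7% to -13.8%. In the rtfl9 quintuple against wild type the single call became 5 with array weights, 0 with the replicate block, 2 without both libraries that stand apart (chosen after seeing the data) and 0 to 1 with a library left out. The 26 calls of dvl1-1D against 35S:DVL8 became 17 with only the libraries compared and 14 to 26 with a library left out. Its leave-one-out medians ran from -0.25 to -0.15 over all members and from -0.27 to -0.16 for variants, whose median was -0.25 after median-of-ratios scaling. For variants in the dvl1 quintuple against the rtfl9 quintuple they ran from -0.0835 to -0.0382. The cause of these shifts was not tested. With the replicate number as a block, 21 genes were called in dvl1-1D against wild type, 25 against 35S:DVL8 and 23 (of 29) in the overexpression lines against the quintuples. The latter count was 24 to 29 with a library left out. Of the calls over all genes, 44.3% were higher in dvl1-1D than in wild type after quantile scaling, and 44.1% than in 35S:DVL8. Depth limits HIS1-3 most, as it has the fewest reads.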
